A study of Mus musculus with 26 samples.

Results

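The cytosolic chaperones of the HSP70 and HSP90 machinery and the ubiquitin ligase CHIP were followed through ribosome footprinting and RNA-Seq of mouse striatum. The members were chosen by gene symbol and are Hspa8, Hspa4, Hspa4l, Hsph1, Dnaja1, Dnajb1, Hsp90aa1, Hsp90ab1, Cdc37 and Stub1. Each of the 3 deposited tables lists 9 of these 10 symbols, with Hspa4l as the missing one. The transgenic tables hold 8576 transcripts each, and the knockout table holds 9561.

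HSP70 and HSP90 proteins bind unfolded or partly folded client proteins in cycles driven by ATP. J-domain proteins deliver clients to HSP70 and stimulate its ATPase, nucleotide exchange factors reset it, and many kinases go on to HSP90 with Cdc37 as their adaptor. CHIP, the product of Stub1, binds the tails of HSP70 and HSP90 and ubiquitylates the clients they hold, which can send these to the proteasome. LRRK2 is a kinase that has been described as a client of HSP90 and as a substrate of CHIP.

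All mice were C57BL/6 and 3 months old by their labels, and the tissue was striatum, described in the methods as caudate putamen. The groups were mice with a G2019S LRRK2 transgene (GS LRRK2 TG), mice with a G2019S/D1994A LRRK2 transgene whose kinase is inactive (GS/DA LRRK2 TG), non-transgenic mice (non-TG control), LRRK2 knockout mice (LRRK2 KO) and wild-type mice (WT). The labels give 3 footprinting and 3 RNA-Seq libraries of non-TG control, 2 and 2 of GS LRRK2 TG, 2 and 2 of GS/DA LRRK2 TG, and 3 and 2 of both WT and LRRK2 KO. The labels give a single set of non-TG control samples for both transgenic lines, and which of these libraries entered which table is not given in the sources used here. Their control means differ in more than scale, with 2523.7 and 1334.63 footprints for Lrrk2 but 50495 and 60881 for Hspa8 in the tables of GS LRRK2 TG and of GS/DA LRRK2 TG. A footprinting library of WT ventral midbrain and another of LRRK2 KO ventral midbrain were not analysed here. The transgenes sat in lines of high copy number and were driven by CaMKII-tTA in a Tet-off system, so expression was set by a forebrain neuron promoter and by the removal of doxycycline after weaning. Each library came from pooled tissue of several mice of both sexes. The paper calls the results it joined independent, but the labels do not say whether libraries of a group are separate pools, so spread between them may be technical.

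For each group and assay, a table gives a normalized mean of the reads in the coding sequence (CDS) and no SD. Normalization was done within each of the 3 tables. In 10 of the 12 columns, the mean could be split into 2 libraries, and 98.7% to 99.9% of the transcripts of such a column were resolved. The footprinting columns of WT and LRRK2 KO split into 2 libraries where the labels give 3, so a labelled library of each group was not in the means. The paper lists sample 3 of each group with footprinting only and describes additional experiments in striatum and ventral midbrain. Sample 3 is thus probably the one left out, although the paper does not say so directly. In the table of GS LRRK2 TG, both columns of non-TG control could not be split, so no test was possible for that line. The split libraries carry no replicate number, and the mapped reads that the paper lists for each numbered sample place only some of the footprinting ones. The split libraries are called library 1 and library 2. For GS/DA LRRK2 TG and LRRK2 KO they were numbered, after the data were seen, so that library 1 of the genotype deviates like library 1 of its control, while the numbers of GS LRRK2 TG are arbitrary. The split libraries held 7484373 to 8546424 footprints and 8691259 to 14499853 RNA-Seq reads for GS LRRK2 TG. Libraries of the GS/DA LRRK2 TG comparison held 8378561 to 19686452 and 11406242 to 14025750, and 2849337 to 6028946 and 3145656 to 10839972 were found for LRRK2 KO and WT. Translational efficiency (TE) was the log2 ratio of the mean of footprints to that of RNA-Seq reads, and a TE difference was that of the genotype minus that of its control. Without replicates in the means, a difference counted as higher or lower once it passed 1.2-fold.

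Lrrk2, the altered gene, was read first in each library as a check of the labels. In the LRRK2 KO table it held 102 and 149.7 normalized footprints in LRRK2 KO against 400.3 and 690.1 in WT, and 423 and 270.02 normalized RNA-Seq reads against 1278 and 733. The LRRK2 KO libraries lay below the WT libraries in both assays without overlap, as the label has it. The footprints were 7267 and 4766 in GS/DA LRRK2 TG against 1445 and 1224 in its control, again without overlap. The RNA-Seq reads of that table, 5038 and 404 against 5233 and 560.2, overlapped. The GS LRRK2 TG libraries held 3320 and 7052 footprints, both above the control mean of 2523.7. Their RNA-Seq reads were 3549.6 and 214, on either side of the control mean of 2104.71, with a difference of -0.16 in the means. Lrrk2 footprints thus followed the transgenic labels, and Lrrk2 RNA-Seq reads did not.

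Per kilobase of CDS, each of the 9 members lay above the median transcript in both assays in non-TG control striatum. Hspa8, the constitutive HSP70 of the cytosol, had 25109 normalized footprints and 26874 RNA-Seq reads per kilobase in the control of the GS LRRK2 TG table, where the median transcript had 395 and 473. Hsp90ab1, the constitutive HSP90, followed with 16482 and 14617. Hsp90aa1, the heat-inducible HSP90, had 10062 footprints but 2816 RNA-Seq reads per kilobase, and Dnaja1, a J-domain partner of HSP70, had 5788 and 2639. Hsph1 and Hspa4, both HSP110 proteins that act as nucleotide exchange factors, had 3005 and 1895 footprints with 1742 and 1183 RNA-Seq reads. Cdc37, the adaptor for kinases, had 2041 and 2534. Stub1 had 1713 footprints against 4549.83 RNA-Seq reads, and Dnajb1, a heat-inducible J-domain protein, was the least abundant of the 9 with 1059.91 and 1086. By footprints the order of the 9 was the same beside GS/DA LRRK2 TG, where control Hspa8 had 30274 and Dnajb1 1339 per kilobase, and there the control libraries of Cdc37 and Hspa4, neighbours in that order, overlapped. In WT striatum, whose table was normalized separately, the order of the means placed Hspa4 with 936 above Cdc37 with 779, between Hspa8 with 12368 and Dnajb1 with 343, and the WT libraries of Hspa4 and Cdc37 overlapped as well.

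The TE of the members spread widely. In the control of the GS LRRK2 TG table, Hsp90aa1 had the highest TE of the 9 at 1.84, followed by Dnaja1 at 1.13, Hsph1 at 0.79 and Hspa4 at 0.68. Hsp90ab1 at 0.17, Dnajb1 at -0.03, Hspa8 at -0.10 and Cdc37 at -0.31 lay nearer to the median of all transcripts, -0.17. Stub1 was the lowest, at -1.41. Stub1 was also lowest in the control set beside GS/DA LRRK2 TG (-1.21) and in WT (-1.09), and Hsp90aa1 was highest in both (2.17 and 0.67). These ranks are of group means, and that of Hsp90aa1 hangs on RNA-Seq libraries that lay far apart, with 10196 and 2067 reads in the former control and 4287 and 9291 in WT. The median TE of the members was 0.17 in the first control, 0.38 in the second and 0.17 in WT, where all transcripts had medians of -0.17, 0.04 and -0.64. The 5′UTR folding energies the authors listed ran from -20.6 kcal/mol for Cdc37 and -24 for Hsp90ab1 to -206.4 for Hspa8 and -258.4 for Stub1, with a median of -91.15 over all transcripts. The weakest and the strongest folding of the 9 thus sat on Cdc37 and Stub1, while Hsp90aa1 had -66.3 and Dnaja1 -105.8.

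Several members share sequence with other places in the genome, and how reads that match many places were counted is not given in the sources used here. Of the 28-base stretches of the CDS, 95.5% of Hspa8, 95.6% of Dnaja1 and 92.9% of Hsp90aa1 also occur outside the gene in mm9, in 16, 6 and 12 other places of 20 kb. For Hsp90ab1 the share was 26.7%, in 22 places, and for Stub1 0.676%. Hspa4, Hsph1, Dnajb1 and Cdc37 had 0 such stretches. The levels of Hspa8, Dnaja1, Hsp90aa1 and Hsp90ab1 are therefore uncertain as absolute values. Stub1 shares 432 of its 912 coding bases with exons of Jmjd8 on the other strand, and since a strand-aware count is not stated, reads of the 2 genes cannot be told apart there.

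**Figure D1:**
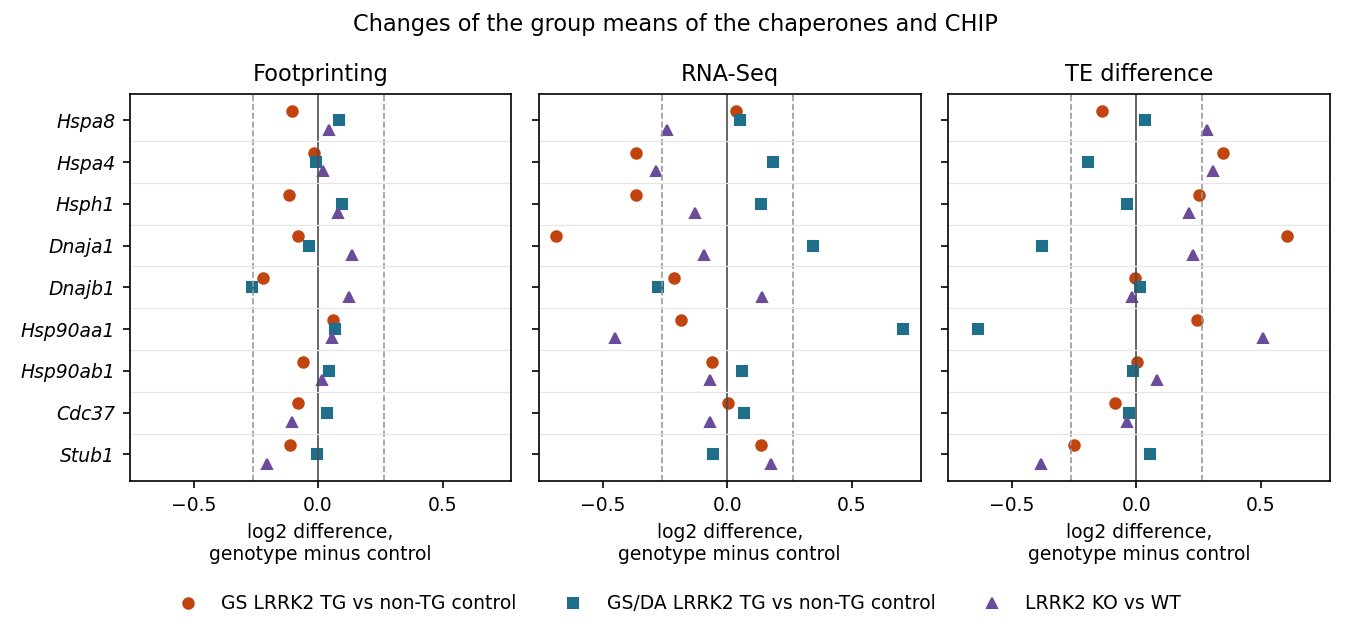
The plot of member differences shows, for footprinting, RNA-Seq and TE in separate panels, the log2 difference of group means, genotype minus control, of the 9 listed members, with circles for GS LRRK2 TG, squares for GS/DA LRRK2 TG, triangles for LRRK2 KO and dashed lines at 1.2-fold. Footprinting symbols lie between -0.26 and 0.13, while RNA-Seq symbols spread from -0.69 (Dnaja1, GS LRRK2 TG) to 0.71 (Hsp90aa1, GS/DA LRRK2 TG).

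The GS LRRK2 TG comparison asks what the kinase-active transgene does to the striatum. Footprints of the members differed little from non-TG control: 0 of the 9 passed 1.2-fold, where 5.6% of all transcripts did, and 8 of the 9 differences lay below 0 with a median of -0.08 (all transcripts 0.00). In RNA-Seq, 3 of the 9 were lower and 0 higher, against 17.4% of all transcripts past the fold in either direction, and the medians were -0.18 for the members and -0.02 for all transcripts. In TE, 2 of the 9 were higher and 0 lower, against 20.4% of all transcripts in either direction, and the median was 0.00 (all transcripts 0.02). Without footprinting library 1 of GS LRRK2 TG, 1 member passed in footprinting, Dnajb1. Without RNA-Seq library 2, 5 of 8 resolved members passed in RNA-Seq. The TE count was 5 of 9 without either footprinting library, 6 of 8 without RNA-Seq library 1 and 5 of 8 without RNA-Seq library 2. No share of all transcripts is given for a left-out library, so these counts do not set the members apart. In this bulk tissue, fewer cells of a type and less RNA per cell cannot be told apart.

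Among the HSP70 proteins, Hspa8 held 51005 and 42873 footprints in the GS LRRK2 TG libraries, around a control mean of 50495. Its RNA-Seq means were 55365 in GS LRRK2 TG and 54043 in control, and its TE difference was -0.14. The latter was -0.27 without footprinting library 1 and -0.02 without footprinting library 2. Transcripts of like GC content, within 1 percentage point of the gene's CDS, had a median TE difference of 0.09. Hspa4 held 4544 and 4906 footprints against a mean of 4786, but its RNA-Seq reads were 3713 in library 1 and 921 in library 2, with a control mean of 2989. The control mean thus lay between the libraries, and the RNA-Seq difference of -0.37 was 0.31 without library 2 and -1.70 without library 1. The TE difference of Hspa4 was 0.35, and it was -0.33 without RNA-Seq library 2. Hsph1 held 7402 and 6875 footprints against 7734, and 3189 and 3757 RNA-Seq reads against 4483. Both of its RNA-Seq libraries lay below the control mean, and the difference of -0.37 ran from -0.49 to -0.25 when either was left out.

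The J-domain protein Dnaja1 showed the largest RNA-Seq and TE differences of the 9 in GS LRRK2 TG. Its footprints, 6291 and 6738, stood just below the control mean of 6893, and its RNA-Seq reads, 2702 and 1203, below the control mean of 3143 in both libraries. The RNA-Seq difference was -0.69, against a median of -0.15 over the 202 transcripts of like GC content, and the TE difference was 0.61 against 0.24. Without RNA-Seq library 2 these values were -0.22 and 0.14, and without library 1 they were -1.39 and 1.30. Dnajb1 held 1232 and 625 footprints around a mean of 1081, and 660.5 and 1250.4 RNA-Seq reads around 1108. Its libraries lay on either side of the control mean in both assays, and its footprinting difference of -0.22 was 0.19 without library 2 and -0.79 without library 1.

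Both HSP90 genes lay within 1.2-fold in RNA-Seq in the means of GS LRRK2 TG. Hsp90aa1 held 22110.4 and 23987 footprints against a control mean of 22126, whereas its RNA-Seq reads were 9726 in library 1 and 1176 in library 2 against 6193. The single libraries lay far apart on both sides of the control mean, and the RNA-Seq difference of -0.18 became 0.65 or -2.40 with 1 library left out. Its TE difference of 0.24 stood beside a median of 0.23 for its neighbours in GC content, and it was -0.59 without RNA-Seq library 2. Hsp90ab1 held 37462 and 31264 footprints and 26680.5 and 34212 RNA-Seq reads around means of 35798 and 31749, and its TE difference was 0.00. The kinase adaptor Cdc37 held 2377 and 2008 footprints around 2320.3 and 2128 and 3646 RNA-Seq reads around 2881. Its TE difference of -0.08 was -0.42 without RNA-Seq library 1 and 0.36 without RNA-Seq library 2. Stub1 had 1387 and 1501 footprints, both below the control mean of 1562, and 4457 and 4667 RNA-Seq reads, both above 4149. Its TE difference of -0.25 kept its sign when any 1 GS LRRK2 TG library was left out, from -0.31 to -0.19, but stayed within 1.2-fold in the group means.

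The GS/DA LRRK2 TG comparison asks the same of the transgene without kinase activity, with a control from the same labelled set of non-TG samples. Since control libraries may be shared, values of the lines are set side by side and no relation between them was computed. In footprinting, 1 of the 9 members was lower and 0 higher, where 5.92% of all transcripts passed 1.2-fold, and the median was 0.04 (all transcripts -0.01). In RNA-Seq, 2 were higher and 1 lower against 15.2% of all transcripts, with medians of 0.07 and 0.06. In TE, 2 were lower and 0 higher against 13.3%, with medians of -0.03 and -0.05. Counts with a library left out cover only the members resolved in the group concerned. They stand without a share of all transcripts and do not set the members apart. The footprinting count was 0 of 8 without library 2 of non-TG control and 0 of 8 without library 1 of GS/DA LRRK2 TG. The RNA-Seq count was 5 of 6 without RNA-Seq library 2 of GS/DA LRRK2 TG. The TE count was 4 of 6 without RNA-Seq library 1 or 2 of GS/DA LRRK2 TG and 1 of 8 without its footprinting library 2.

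Wherever single libraries of the members could be compared in this table, those of genotype and control overlapped. Of the 7 members resolved in both groups in footprinting, 0 had libraries that did not overlap, where 24.3% of all transcripts did. In RNA-Seq this held for 0 of 6 members and 3.38% of all transcripts. With limma on single libraries and Benjamini-Hochberg adjustment, 0 of 8437 transcripts were called in footprinting (0%), 0 of 8499 in RNA-Seq (0%) and 0 of 8404 in TE (0%), while 142, 0 and 0 had an unadjusted p under 0.05. Lrrk2 itself was thus not called in footprinting (limma 2.14, SE 0.215, Benjamini-Hochberg adjusted p = 0.528), so a missing call says little about a member. Hspa8 and Hsp90ab1 could not be fitted in any measure, and Hsp90aa1 was fitted in footprinting only. With the library number as a batch term, limma called 151 transcripts in footprinting (1.79%), 1 in RNA-Seq (0.0118%) and 0 in TE (0%), and no fitted member was among them. Since the library numbers were set by likeness of the same values, the batch term narrows the spread by its construction, and its calls and SEs are biased to that extent. Without a batch term and without 1 library, limma called 39 (control library 1 left out), 19 (control library 2), 2 (GS/DA LRRK2 TG library 1) and 27 (GS/DA LRRK2 TG library 2) transcripts in footprinting.

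**Figure D2:**
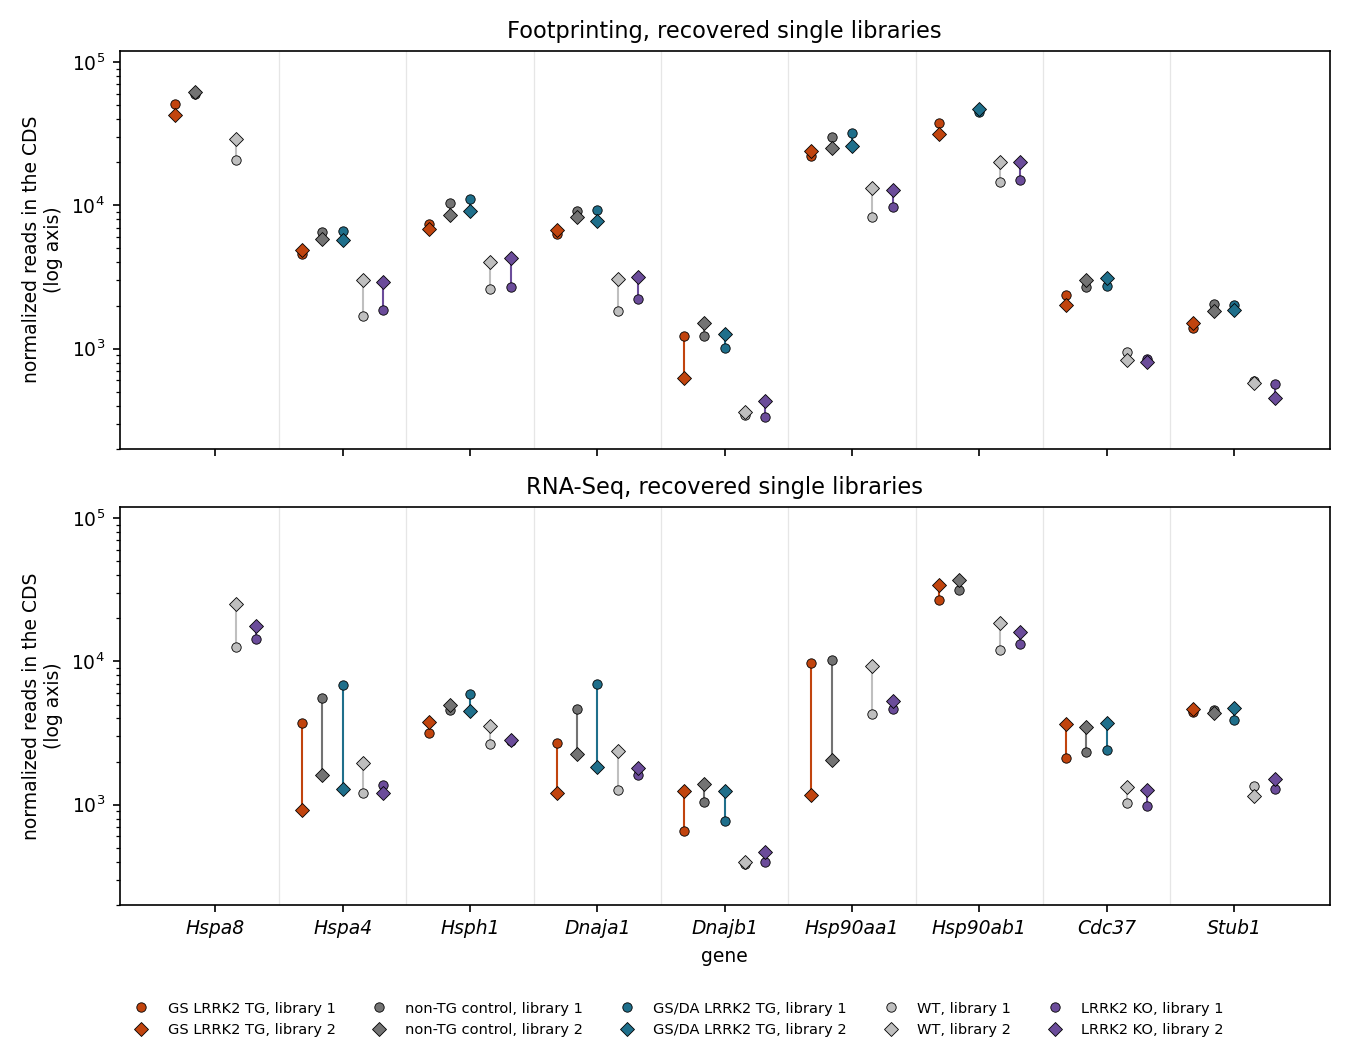
The plot of single libraries gives the normalized reads in the CDS of each member on a log axis, with footprinting and RNA-Seq in separate panels, a circle for library 1, a diamond for library 2, a line joining them and a colour for each group. Points missing were not resolved, and the longest line belongs to Hsp90aa1 in GS LRRK2 TG RNA-Seq, from 9726 down to 1176.

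Dnajb1 was the member past 1.2-fold in footprinting in GS/DA LRRK2 TG, by a narrow margin that a pseudocount of 10 or median centring each removed. It held 1231 and 1501 footprints in the control libraries and 1015 and 1258 in those of GS/DA LRRK2 TG. The genotype was lower within both library numbers, by log2 differences of -0.28 and -0.25, yet its library 2 lay above library 1 of the control, so the groups overlapped. The limma estimate was -0.26 (SE 0.16, Benjamini-Hochberg adjusted p = 1.00). With the batch term in limma, biased as above, the SE was 0.0663 and the Benjamini-Hochberg adjusted p was 0.0878. Transcripts of like GC content had a median of 0.00. Its RNA-Seq reads were 1048 and 1395 in control and 771 and 1244 in GS/DA LRRK2 TG, differences of -0.44 and -0.16 within library numbers, so its TE difference was 0.01. The other J-domain protein, Dnaja1, held 9149.6 and 8359 footprints in control and 9309 and 7770.0 in GS/DA LRRK2 TG. Its RNA-Seq reads were 4626 and 2264 in control and 6913 and 1828 in GS/DA LRRK2 TG. Library 1 was the higher one in both groups, and the genotype stood above control in library 1 (0.58) and below it in library 2 (-0.31). The RNA-Seq difference of the means, 0.34, became 1.00 without library 2 of GS/DA LRRK2 TG and -0.91 without its library 1, and the TE difference of -0.38 became -1.04 and 0.88.

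Hsp90aa1 had the largest RNA-Seq and TE differences of the 9 in GS/DA LRRK2 TG. Its footprints were 30093 and 25131 in control and 31819 and 26097 in GS/DA LRRK2 TG, and its RNA-Seq reads were 10196 and 2067 in control. The GS/DA LRRK2 TG libraries were not resolved, but their mean of 10007 places at least 1 of them below control library 1, so the groups overlapped. The RNA-Seq difference was 0.71 and the TE difference -0.64, where the 311 transcripts of like GC content had medians of 0.16 and -0.20. Without RNA-Seq library 2 of non-TG control these values were -0.03 and 0.10, and without library 1 they were 2.28 and -2.21. Hsp90ab1 held 44941 and 46788 footprints in GS/DA LRRK2 TG, both just above a control mean of 44459.6, with a TE difference of -0.02. The sign and size of the Hsp90aa1 differences thus hung on single RNA-Seq libraries, while its footprinting libraries lay between 25131 and 31819.

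The remaining members differed by less than 1.2-fold in GS/DA LRRK2 TG. Hspa8 had 60319 and 61443 footprints in control and a mean of 64575 in GS/DA LRRK2 TG, with a TE difference of 0.03. Hspa4 held 6534 and 5851 footprints in control and 6620.0 and 5704 in GS/DA LRRK2 TG, but 5516 and 1624 against 6827 and 1294 RNA-Seq reads. Its library 1 was again the high one in both groups, and its TE difference of -0.19 ran from -1.33 without RNA-Seq library 1 of control to 1.46 without RNA-Seq library 1 of GS/DA LRRK2 TG. Hsph1 held 10339 and 8549 footprints in control and 11017 and 9178 in GS/DA LRRK2 TG, higher by 0.09 and 0.10 within the library numbers (limma with the batch term, 0.10, SE 0.0439, Benjamini-Hochberg adjusted p = 0.329). Cdc37 had 2712 and 3011 footprints in control and 2748 and 3124 in GS/DA LRRK2 TG, and 2317 and 3497 against 2392 and 3694 RNA-Seq reads. Stub1 had 2049 and 1823 against 2004 and 1859 footprints and 4556 and 4379 against 3886 and 4708 RNA-Seq reads. The TE differences of Hsph1 (-0.04), Cdc37 (-0.03) and Stub1 (0.05) took both signs over the combinations of a footprinting with an RNA-Seq library number, from -0.29 to 0.24, from -0.06 to 0.01 and from -0.14 to 0.26.

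The LRRK2 KO comparison asks what the loss of LRRK2 does, in a separate table with WT mice as control. In footprinting, 0 of the 9 members passed 1.2-fold, where 13.8% of all transcripts did, and 7 of the 9 differences lay above 0 with a median of 0.04 (all transcripts 0.02). In RNA-Seq, 2 were lower and 0 higher against 22.9% of all transcripts, with medians of -0.09 and 0.01. In TE, 3 were higher and 1 lower against 30.9%, and 6 of the 9 differences lay above 0, with a median of 0.21 against 0.02 for all transcripts. The footprinting count was 1 of 9 without library 1 of WT, 5 of 9 without library 2 of WT, and, of 8 resolved members, 5 without library 1 of LRRK2 KO and 2 without library 2 of LRRK2 KO. The RNA-Seq count was 7 of 9 without library 1 of WT. The TE count was 7 of 9 without footprinting library 2 or RNA-Seq library 1 of WT, 1 of 9 without footprinting library 1 of WT and 1 of 8 without footprinting library 2 of LRRK2 KO. Here too no share of all transcripts is given for a left-out library, so these counts do not set the members apart.

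Single libraries of the members again overlapped in most cases. In footprinting, 1 of 8 members resolved in both groups had libraries that did not overlap, where 12.6% of all transcripts did, and in RNA-Seq 0 of 9 against 14.1%. With limma and Benjamini-Hochberg adjustment, 0 of 9504 transcripts were called in footprinting (0%), 0 of 9528 in RNA-Seq (0%) and 0 of 9497 in TE (0%), while 6, 7 and 2 had an unadjusted p under 0.05. With the batch term limma called 9 (0.0947%), 12 (0.126%) and 0 (0%), and no member was among them.

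The members lower in RNA-Seq in LRRK2 KO were Hsp90aa1 and Hspa4, and the other HSP90 and HSP70 proteins lay within 1.2-fold. Hsp90aa1 held 8322 and 13311 footprints in WT and 9764 and 12721 in LRRK2 KO, and 4287 and 9291 RNA-Seq reads in WT against 4676 and 5255 in LRRK2 KO. Both LRRK2 KO libraries lay between the WT libraries in RNA-Seq, since WT library 2 was far above the others. The RNA-Seq difference of -0.45 was 0.21 without WT library 2 and -0.90 without WT library 1, and limma gave -0.35 (SE 0.431, Benjamini-Hochberg adjusted p = 1.00). The TE difference was 0.51, against 0.21 for 135 transcripts of like GC content, and it was -0.16 without RNA-Seq library 2 of WT. In limma the TE difference was 0.43 (SE 0.586, Benjamini-Hochberg adjusted p = 1.00). Hsp90ab1 held 14584 and 19938 footprints in WT and 14939 and 19930.1 in LRRK2 KO, and 12077 and 18635 against 13287 and 15987 RNA-Seq reads. The footprints of each library number were close between genotypes, while RNA-Seq differed by 0.14 in library 1 and -0.22 in library 2. The TE difference of the means was 0.08.

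Hspa8 held 12581 and 25316 RNA-Seq reads in WT and 14307 and 17779 in LRRK2 KO, with a difference of -0.24 and a TE difference of 0.28. WT library 2 was again the highest of the 4, and without it the RNA-Seq difference was 0.35 and the TE difference -0.31. Hspa4 held 1698 and 3029.7 footprints in WT and 1860.3 and 2939 in LRRK2 KO, and 1201 and 1939 against 1378 and 1198 RNA-Seq reads. Its RNA-Seq difference of -0.29 was 0.10 without WT library 2, and its TE difference of 0.31 was then -0.08. The TE difference was also below 0 without footprinting library 1 of WT (-0.05) or footprinting library 2 of LRRK2 KO (-0.06). Transcripts of like GC content had a median RNA-Seq difference of -0.10 and a median TE difference of 0.16. Hsph1 held 2634 and 3539 RNA-Seq reads in WT and 2801 and 2836 in LRRK2 KO, and its TE difference was 0.21. It was below 0 without RNA-Seq library 2 of WT (-0.02), footprinting library 1 of WT (-0.07) or footprinting library 2 of LRRK2 KO (-0.17). The J-domain protein Dnaja1 had 1841 and 3044 footprints in WT and 2214 and 3150.1 in LRRK2 KO, and 1262 and 2374 against 1614 and 1793 RNA-Seq reads. Within library 1 its RNA-Seq was higher in LRRK2 KO (0.36) and within library 2 lower (-0.40), for a TE difference of 0.23. Dnajb1 and Cdc37 had TE differences of -0.02 and -0.04.

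Stub1 had the lowest TE difference of the 9 in LRRK2 KO. Its footprints were 597 and 572 in WT and 562 and 452 in LRRK2 KO, so both LRRK2 KO libraries lay below both WT libraries, and 12.6% of all transcripts did not overlap either, in one direction or the other. Its RNA-Seq reads were 1340.2 and 1148 in WT and 1290.2 and 1522 in LRRK2 KO and overlapped. The TE difference was -0.38, where the 304 transcripts of like GC content had a median of 0.01. It was below 0 for every combination of library numbers, from -0.75 to -0.03, and ran from -0.55 to -0.23 with 1 library left out. The share of all transcripts with a single sign was not computed, so no mark of Stub1 is read from this. In limma its TE difference was -0.38 (SE 0.307, Benjamini-Hochberg adjusted p = 1.00) and its footprinting difference -0.21 (SE 0.207, Benjamini-Hochberg adjusted p = 1.00). The overlap of Stub1 with Jmjd8 may enter the assays to unequal degrees. Whether the shared bases are coding in Jmjd8 was not checked, and the part of the overlap in the TE of Stub1 was not tested.

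The RNA-Seq libraries of the transgenic tables differed from each other along GC content, and the members followed this to unequal degrees. Across transcripts, which are not independent replicates, the log2 ratio of RNA-Seq library 1 to library 2 had a Spearman rho with the GC content of the CDS of -0.79 in GS LRRK2 TG (n = 6518), -0.77 in non-TG control (n = 6882) and -0.80 in GS/DA LRRK2 TG (n = 7018). The footprinting libraries of these groups gave 0.33, -0.45 and -0.48, and signs for GS LRRK2 TG are arbitrary like its library numbers. The members ran from 42.6% GC for Dnaja1, 43.4% for Hsp90aa1, 44.8% for Hspa4 and 46.8% for Hsph1 to 54.0% for Dnajb1, 56.8% for Cdc37 and 57.3% for Stub1, around a median of 52.8% over all transcripts. In GS LRRK2 TG, Hsp90aa1 had a library ratio of 3.05 where transcripts of like GC content had a median of 2.32, Hspa4 had 2.01 against 2.01, and Dnaja1 had 1.17 against 2.42. Hsph1 departed most from its neighbours, at -0.24 against 1.43, and Stub1 had -0.07 against -1.20. The non-TG control libraries gave Hsp90aa1 2.30 against 1.65, Dnaja1 1.03 against 1.75, Hsph1 -0.12 against 1.15 and Cdc37 -0.59 against -0.88. In GS/DA LRRK2 TG, Hspa4 had 2.40 against 2.09, Hsph1 0.40 against 1.52 and Stub1 -0.28 against -1.17. Hsp90aa1, Dnaja1 and Hspa4 thus had the lowest GC content, the RNA-Seq libraries furthest apart within a group, and RNA-Seq differences past 1.2-fold in at least 1 transgenic line. Hsph1 and Dnajb1 also passed 1.2-fold in 1 line each, with libraries closer together, and the part of library composition in these differences was not tested.

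**Figure D3:**
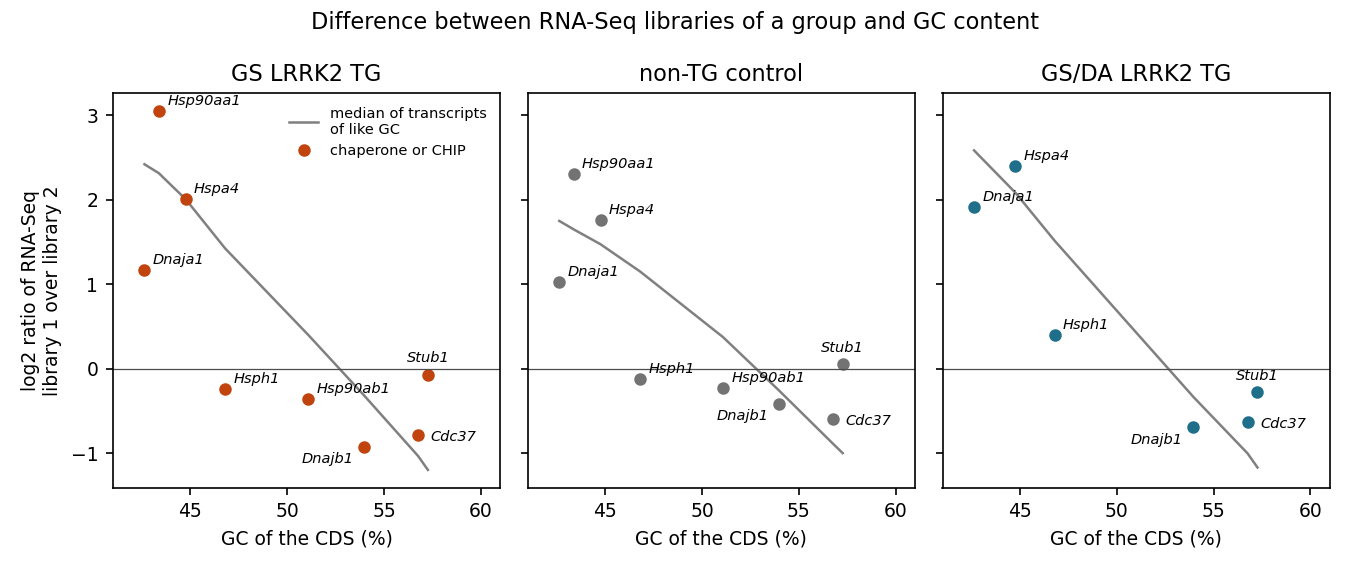
The plot of library ratios has a panel each for GS LRRK2 TG, for non-TG control and for GS/DA LRRK2 TG, with the GC content of the CDS in percent on the x axis, the log2 ratio of RNA-Seq library 1 to library 2 on the y axis, a dot for each resolved member and a grey line for the median of transcripts of like GC content. Hsp90aa1 at 43.4% GC lies at 3.05 in GS LRRK2 TG and at 2.30 in non-TG control, above the line, while Hsph1 lies below it in each panel.

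The LRRK2 KO table behaved differently in this respect. Its RNA-Seq library ratio had a rho with GC content of 0.02 in WT (n = 4473) and -0.26 in LRRK2 KO (n = 4519), and its footprinting ratio 0.63 (n = 2946) and 0.29 (n = 2982). Hsp90aa1 still stood out in the WT RNA-Seq libraries, with a ratio of -1.12 against -0.09 for transcripts of like GC content, as did Hspa8 (-1.01 against -0.02) and Dnaja1 (-0.91 against -0.08). In LRRK2 KO the ratio of Hsp90aa1 was -0.17 against 0.30. The summed footprints of the 9 members were 51537 and 74234 in the WT libraries. Their summed RNA-Seq reads were 36794 and 63971 in WT and 40730.4 and 48103 in LRRK2 KO, so the WT libraries spanned those of LRRK2 KO.

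The HSP90 pair shows how members with nearly the same protein can differ in base composition. The GENCODE CDSs of Hsp90aa1 (listed by the authors as uc007pbq.1, chromosome 12, 111928815 to 111940938, minus strand) and Hsp90ab1 (listed as uc008cqz.1, chromosome 17, 45704724 to 45710220, minus strand, both mm9) were aligned over 725 codons. They encode the same residue in 631 codons (87%), yet 76% of the aligned bases are identical and 322 of these codons differ at the third base. Codons ending in G or C make up 50.9% of the same-residue codons in Hsp90aa1 and 68.8% in Hsp90ab1. The longest exact stretch they share has 33 bases. Over the whole CDS, G or C make up 43.4% in Hsp90aa1 and 51.1% in Hsp90ab1. A stretch of 10 codons in exon 7 gives the most extreme case, with 9 of 30 bases different and shown in capitals. It was picked, among stretches of 10 same-residue codons, for the largest excess of G or C in Hsp90ab1. It holds 26.7% G or C in Hsp90aa1 (CDS bases 1213 to 1242, genomic 111931621 to 111931650) and 56.7% in Hsp90ab1 (CDS bases 1186 to 1215, genomic 45706518 to 45706547).
Hsp90aa1: caAcaAagTaaAatTctgaaAgtTatcAgA
Hsp90ab1: caGcaGagCaaGatCctgaaGgtCatcCgC

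The other members lie on other stretches of mm9. Hspa8 (uc009ozz.1) lies on chromosome 9 from 40609067 to 40613283, plus strand, and Cdc37 (uc009okg.1) on the same chromosome from 20942985 to 20954350, minus strand. Stub1 (uc008bcf.1) lies on chromosome 17 from 25967581 to 25970306, minus strand. Dnaja1 (uc008sht.2) lies on the plus strand of chromosome 4 from 40669183 to 40684182, and Dnajb1 (uc009mkp.2) on the plus strand of chromosome 8 from 86132074 to 86135801. Hspa4 (uc007ivq.1) lies on the minus strand of chromosome 11 from 53073316 to 53113959, and Hsph1 (uc009apx.1) on the minus strand of chromosome 5 from 150416862 to 150438951.

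Other genes of the HSP70 cycle were read for comparison. Over all transcripts, TE was higher in 15.95% and lower in 4.43% for GS LRRK2 TG, higher in 1.25% and lower in 12.05% for GS/DA LRRK2 TG, and higher in 16.9% and lower in 14.0% for LRRK2 KO. RNA-Seq was higher in 3.53%, 13.0% and 10.6% and lower in 13.8%, 2.29% and 12.4%, and footprints were higher in 2.86%, 3.23% and 7.39% and lower in 2.74%, 2.69% and 6.39%, in the same order. The counts of each list are to be read against these shares, and a list can include genes with group means under 300. Of 7 symbols of other cytosolic HSP70 proteins, 5 were listed in the transgenic tables and 6 in the LRRK2 KO table. Their TE was higher in 0 and lower in 2 for GS LRRK2 TG, although the median was 0.15. It was past the fold in 0 for GS/DA LRRK2 TG (median 0.11), and higher in 4 and lower in 0 for LRRK2 KO (median 0.33). All 4 group means reached 300 in 3 of these genes in GS LRRK2 TG and in 2 in LRRK2 KO. None of the lower TE differences in GS LRRK2 TG was among them, and of the higher ones in LRRK2 KO only that of Hspa12a was. Hspa12a, a distant HSP70 relative, had TE differences of 0.26, -0.10 and 0.37 in that order. Of 16 other J-domain symbols 15 were listed. Their TE was higher in 4 for GS LRRK2 TG, lower in 4 for GS/DA LRRK2 TG, and higher in 4 and lower in 2 for LRRK2 KO. Dnajc2, a J-domain protein bound to ribosomes, had TE differences of 0.85 and -0.74 in the transgenic lines, with RNA-Seq differences of -0.78 and 0.53. Dnajb4 had TE differences of 0.51, -0.45 and 0.28. Of 8 symbols of nucleotide exchange factors 6 were listed, with TE higher in 1, past the fold in 0 and higher in 2, and Bag4 stood at 0.31, -0.22 and 0.29.

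Of 25 symbols of HSP90 co-chaperones 24 were listed. In GS LRRK2 TG their TE was higher in 7 and lower in 2, with RNA-Seq lower in 5 and higher in 0. In GS/DA LRRK2 TG their TE was lower in 5 and higher in 0, with RNA-Seq higher in 7 and lower in 0. In LRRK2 KO their TE was higher in 4 and lower in 6. Cacybp had TE differences of 0.47 and -0.63 in the transgenic lines, Fnip1 had -0.81 in GS/DA LRRK2 TG, and Sugt1 had 0.61 in LRRK2 KO. Behind the TE difference of Fnip1 were differences of -0.05 in footprinting and 0.76 in RNA-Seq. The ubiquitin enzymes and shuttle factors that work with CHIP were listed with 17 of 17 symbols in 18 transcripts. Their TE was higher in 2 for GS LRRK2 TG, lower in 1 for GS/DA LRRK2 TG (Ube3a, -0.62) and higher in 6 and lower in 1 for LRRK2 KO, with a median of 0.19. The ubiquilins Ubqln2 and Ubqln1, which carry ubiquitylated proteins to the proteasome, had 0.49 and 0.41 in LRRK2 KO, and a further ubiquilin, Ubqln4, had -0.22.

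Further folding systems were listed as follows. Of 8 subunits of the chaperonin TRiC, 7 were listed, with TE higher in 2 for GS LRRK2 TG and past the fold in 0 for the other genotypes, and Cct8 had 0.31, -0.24 and 0.18. Of 6 prefoldin subunits 3 were listed, with TE higher in 1 for GS LRRK2 TG, lower in 1 for GS/DA LRRK2 TG (Vbp1, -0.41) and past the fold in 0 for LRRK2 KO. Of 7 small heat shock proteins 2 were listed, with 0 past the fold in any measure, and Cryab had TE differences of 0.06, 0.05 and -0.11. The heat shock factors and their inhibitors were listed with 3 of 4 symbols in the transgenic tables and 4 in the LRRK2 KO table, with TE past the fold in 0 for GS LRRK2 TG, lower in 1 for GS/DA LRRK2 TG (Hsf2, -0.40), and higher in 1 and lower in 1 for LRRK2 KO. All 16 chaperones of the endoplasmic reticulum were listed, with TE higher in 4, lower in 2, and higher in 4 and lower in 1, in the same order of genotypes. Hsp90b1, the HSP90 of that compartment and among the extremes of this list, had TE differences of 0.43, -0.60 and 0.38. Behind them were footprinting differences of 0.05, 0.04 and 0.14 and RNA-Seq differences of -0.38, 0.64 and -0.24. Hsp90aa1 had TE differences of 0.24, -0.64 and 0.51, which hung on single RNA-Seq libraries, and a relation between these genes was not tested. Of 10 mitochondrial chaperones 9 were listed, with TE higher in 3 and lower in 1, lower in 2, and higher in 2, and Hspd1 had 0.52, -0.30 and 0.21.

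The list named textbook heat-inducible genes, of which 16 of 18 were listed, was read in the same way. It includes 5 of the 9 listed members, among them Hspa8, which is called constitutive here because it is expressed without heat. For GS LRRK2 TG their footprints were higher in 0 and lower in 3 with a median of -0.10, for GS/DA LRRK2 TG higher in 0 and lower in 1 with 0.04, and for LRRK2 KO higher in 1 and lower in 0 with 0.10. Their RNA-Seq was lower in 6 and higher in 0 for GS LRRK2 TG, higher in 4 and lower in 1 for GS/DA LRRK2 TG, and higher in 1 and lower in 3 for LRRK2 KO. Their TE was higher in 3 and lower in 3, lower in 4 and higher in 0, and higher in 5 and lower in 0 with a median of 0.20. Chordc1, a co-chaperone of HSP90, had a TE difference of -0.43 in GS/DA LRRK2 TG. The immediate early genes, a list of activity-dependent transcripts, had footprints lower in 10 and higher in 0 of 16 for GS LRRK2 TG (median -0.32) and lower in 8 and higher in 1 for GS/DA LRRK2 TG (median -0.31). Their summed footprints were 27201 and 13186 in the GS LRRK2 TG libraries around a control mean of 25564, and 20447 and 25787 in GS/DA LRRK2 TG against 28355 and 36998 in non-TG control. The latter libraries did not overlap, and Egr1 was the most abundant gene. In LRRK2 KO the list was higher in 5 and lower in 5, with sums of 9935 and 10835 against 11020 and 8913. In RNA-Seq the list summed to 4555 and 31254 in the GS LRRK2 TG libraries and to 6743 and 38053 in the control beside GS/DA LRRK2 TG. The LRRK2 KO libraries lay closer, at 10885 and 12916. The part of neuronal activity in these values was not tested.

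Cell type markers were summed in each library to describe the tissue. Striatal spiny neuron markers were listed with 11 of 13 symbols, and Ppp1r1b was the most abundant, so the defining markers of the labelled tissue were present. Their summed footprints were 117932 and 81322 in GS LRRK2 TG around a control mean of 107792, 131087 and 157623 in the other control against a GS/DA LRRK2 TG mean of 116749, and 35939 and 25354 in WT against 38178 and 25468 in LRRK2 KO. They were lower in 2, lower in 3 and higher in 3 in that order of comparisons. Cortical projection neuron markers were listed with 4 of 8 symbols in the transgenic tables and 8 of 8 in the LRRK2 KO table, with Bcl11b, which spiny neurons also express, as the most abundant. Their footprints were higher in 3 of 4 for GS/DA LRRK2 TG, with a median of 1.18 and sums of 9504 and 9352 against 8006 and 8668 in control, which did not overlap, although Bcl11b itself had a mean of 6089 against 6994. For GS LRRK2 TG they were lower in 1, with sums of 5789.7 and 6327 below a control mean of 6954, and for LRRK2 KO past the fold in 0, with sums of 4444 and 4171 against 5114 and 3785. In RNA-Seq these markers were lower in 4 of 4 for GS LRRK2 TG (median -0.39), higher in 3 of 4 for GS/DA LRRK2 TG (1.10) and lower in 4 of 8 for LRRK2 KO (-0.26), where TE was higher in 5. The spiny neuron markers had RNA-Seq medians of -0.08, -0.17 and 0.02, lower in 2, 2 and 1 and higher in 0, 1 and 1.

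Of the other cell types, astrocyte markers were listed with 8 of 8 symbols, led by Slc1a2, with footprints past the fold in 0, higher in 1 and lower in 2. They summed to 19115 and 20821 footprints in GS LRRK2 TG above a control mean of 18903, to a mean of 26035 in GS/DA LRRK2 TG above control libraries at 23761 and 23858, and to 6898 and 2269 in LRRK2 KO against 6119 and 2841 in WT. Endothelial markers were listed with 1 of 7 symbols, Slc2a1, within the fold in footprints in each comparison, at 621 and 556 footprints in GS LRRK2 TG above a control mean of 505, 659 and 719 in GS/DA LRRK2 TG against 531 and 678 in control, and 186 and 61.5 in LRRK2 KO against 200.1 and 73.3 in WT. Choroid plexus markers, tissue from the ventricle beside the striatum, were listed with 2 of 6 symbols, led by Ttr, with footprints lower in 2, lower in 2 and past the fold in 0. They summed to 682 and 1239 footprints in GS LRRK2 TG below a control mean of 4239, to 5525 and 1440.3 in GS/DA LRRK2 TG against 1489 and 17613 in control, and to 224 and 72.7 in LRRK2 KO against 155 and 143 in WT. Red blood cell transcripts were listed with 3 of 6 symbols, led by Hba-a2, and their footprints were lower in 0 for GS LRRK2 TG, in 3 for GS/DA LRRK2 TG and in 3 for LRRK2 KO. Their sums were 17771 and 11145 in GS LRRK2 TG around a control mean of 15389, 20612 and 14656 in GS/DA LRRK2 TG against 25199 and 18874 in control, and 2716 and 1537 in LRRK2 KO against 5375 and 1364 in WT. In RNA-Seq of GS LRRK2 TG, red blood cell transcripts summed to 9721 and 49017 in the libraries and Slc2a1 to 196 and 853, but astrocyte markers to 9566 and 6823. Libraries of 1 group thus differed severalfold in choroid plexus markers in footprinting, and in red blood cell transcripts and Slc2a1 in RNA-Seq. The part of cell composition in the differences of the chaperones was not tested.

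The sums, counts and medians above are descriptions of 2 libraries a group where these were resolved. The authors describe the means as 2 results joined, but the labels give 3 control libraries and the control columns beside GS LRRK2 TG did not resolve as 2, so their number was not checked, and p-values could be had for the GS/DA LRRK2 TG and LRRK2 KO comparisons only. Differences of RNA-Seq or TE for Hsp90aa1, Hspa4 and Dnaja1 that are set by 1 library give no direction for the genotype. The same holds for the TE differences of Hsph1 and Hspa8 in LRRK2 KO and of Cdc37 in GS LRRK2 TG, and the Dnajb1 count in GS/DA LRRK2 TG hung on the fold limit.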

How the data were processed

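The authors aligned reads to mm9 with TopHat2 2.0.11 and Bowtie2 2.2.2 after CASAVA 1.8, counted CDS reads over a gene's joined isoforms, discarded transcripts with few reads and deposited, as a signal, group means normalized with DESeq 1.20, without an SD. The deposited TE, TE difference and z score columns, the authors' own comparisons on the log2 scale, were not used. The folding energy (kcal/mol) that the authors deposited for each 5′UTR was printed as given. Log2 differences were computed from the means with a pseudocount of 0 over all transcripts, and 1.2-fold served as the rule in place of a test.

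Reads of single libraries were recovered as the 1 pair of whole numbers that gives a mean within 0.505 units of its last digit. The limit of 8 on the log2 departure of a library ratio was set after the data were seen. Libraries of genotype and control were matched by how alike their library ratios were (Spearman rho of 0.769 and 0.980 in size for footprinting and RNA-Seq of GS/DA LRRK2 TG, then 0.808 and 0.711 of LRRK2 KO). The test was limma 3.58.1 (R 4.3.3) on log2 normalized reads plus 10, with genotype, and with genotype, assay and their interaction for TE. The fit for TE treats the libraries of both assays as independent, although the paper split each lysate between the assays. The p-values were adjusted by Benjamini-Hochberg over all transcripts fitted, with 0.05 as the threshold. The recovery was tested on simulated data. Alternatives were a fold of 1.5, group means of at least 256, pseudocounts of 10 or 1, median centring, the mean of log2 values, values within matched libraries, the opposite matching, library number as a batch term and each library left out. Other steps used Python 3.11.15. CDS sequences, their GC content, CDS lengths, exons and gene positions came from GENCODE vM1 by gene name. The NCBIM37 assembly was searched for stretches found elsewhere. The uc identifiers printed beside the genes are the authors' and were not matched to the GENCODE transcripts.

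Groups followed the sample labels. Genes named are the members, Lrrk2 and, of each other list, at most the 2 highest and 2 lowest TE differences among genes with all 4 means at least 300, besides the most abundant marker. Some marker lists are not reported here. The members and lists were chosen with earlier results of these data known.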

Additional observations from a re-analysis of the deposited data

How the results depend on the processing

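Of 170 alternatives run for 15 results, 108 left the count within 1.5 times and 62 moved it. The cause was not tested. Shares of all transcripts past the fold under the alternatives are not given, so the counts of members below do not set the members apart. At 1.5-fold in place of 1.2-fold, the members counted were 1 in RNA-Seq and 1 in TE for GS LRRK2 TG, 0, 1 and 1 in footprinting, RNA-Seq and TE for GS/DA LRRK2 TG, and 0 in RNA-Seq and 0 in TE for LRRK2 KO. A pseudocount of 10 and median centring each gave 0 in footprinting for GS/DA LRRK2 TG. The mean of log2 values gave 1 in RNA-Seq and 0 in TE of 6 members for GS/DA LRRK2 TG, and 1 in RNA-Seq for LRRK2 KO. Within matched libraries, GS/DA LRRK2 TG had 0 in footprinting (library 2) and 1 in TE (both libraries 2), and LRRK2 KO had 1 and 1 in footprinting, 1 and 6 in RNA-Seq, and 0 and 2 in TE with RNA-Seq library 1. Under the opposite matching, GS/DA LRRK2 TG had 0 and 3 in footprinting, 5 in RNA-Seq and 5 in TE, and LRRK2 KO had 7 and 5 in footprinting, 6 and 7 in RNA-Seq, and 7, 7 and 2 in TE. The batch term in limma gave 151 and 1 calls over all transcripts in footprinting and RNA-Seq for GS/DA LRRK2 TG, and 9 and 12 for LRRK2 KO, and 0 in TE. With 1 library left out, counts of members in footprinting, RNA-Seq and TE ran from 0 to 1, 4 to 5 and 5 to 6 for GS LRRK2 TG, from 0 to 1, 2 to 5 and 1 to 4 for GS/DA LRRK2 TG, while LRRK2 KO ran from 1 to 5, 2 to 7 and 1 to 7. Calls by limma with 1 library left out, where the lone library is assumed to vary like the others, ran from 2 to 39 in footprinting for GS/DA LRRK2 TG and were 0 in the other 5 fits. For GS LRRK2 TG, the mean of log2 values, values within matched libraries, the opposite matching and limma with its alternatives were not run, because its control libraries were not recovered. No paired analysis was possible because the recovered libraries carry no replicate number from the labels. The library matching used above rests on the values themselves. The mapped reads that the paper lists place some footprinting libraries by number, but none of the RNA-Seq ones. By that listing, the control library of 15391532 footprints can only be sample 3, a number that GS/DA LRRK2 TG does not have. The WT footprinting libraries were not placed by it. Which recovered footprinting library shares a sample with which recovered RNA-Seq library is therefore not known. Depth limits Dnajb1 and Stub1 most, with 335 and 428, and 562 and 452, normalized footprints in the LRRK2 KO libraries.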
